A study of Homo sapiens with 30 samples.

Results

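Transcripts of 8 genes of the ATF4 stress response were followed in H1299 cells transfected with p53 vectors. They were taken by name (ATF4, DDIT3, TRIB3, ASNS, CHAC1, PSAT1, PHGDH and PPP1R15A) from the 39359 genes of the count table, and all 8 passed the filter on low counts that kept 21335 genes for testing. H1299 is a human lung carcinoma line that lacks p53, so each p53 form had to come from a transfected vector. Cells received a vector expressing GFP alone (pGFP), or a GFP vector that also expressed wild type p53, the RW mutant p53 (a substitution at codon 248), or p53 from a template strand carrying the lesion O6-methylguanine at codon 248 (p53 O6-meG). In the group called p53 TM, for transcriptional mutagenesis, cells with the lesion vector were also given 10 µM O6-benzylguanine (O6-bzG), which inactivates the repair protein AGT. Expression was transient, both genes stood under inducible promoters, and GFP-positive cells were sorted at 6 h or 24 h before RNA was made. The labels give O6-bzG only together with the lesion vector, so an effect of the drug alone and one of the lesion left unrepaired cannot be told apart in p53 TM. RNA came from sorted cells in bulk, so fewer cells with a transcript and less of it per cell cannot be told apart.

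ATF4 is the transcription factor at the end of the integrated stress response. Kinases that sense unfolded protein, amino acid shortage, heme shortage or double-stranded RNA phosphorylate eIF2 alpha, which lowers translation in general and raises that of the ATF4 mRNA, so ATF4 protein can change with little change of its transcript. ATF4 binds composite C/EBP-ATF sites, often with C/EBP partners, and switches on genes for amino acid synthesis and uptake. It also raises regulators that follow it when stress lasts: DDIT3 (the factor CHOP), TRIB3 (a pseudokinase that restrains ATF4 and CHOP), CHAC1 (an enzyme that degrades glutathione) and PPP1R15A (GADD34, the phosphatase subunit that removes the phosphate from eIF2 alpha). Among the other members, ASNS makes asparagine, and PHGDH and PSAT1 are the first enzymes of serine synthesis from glucose.

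On hg38, with the gene bounds of GENCODE v44, ATF4 lies at chr22:39519695-39522683, CHAC1 at chr15:40952962-40956512, PSAT1 at chr9:78297125-78330093, PHGDH at chr1:119648411-119744218, TRIB3 at chr20:362835-397559 and PPP1R15A at chr19:48872212-48876059, all on the plus strand. DDIT3 at chr12:57516588-57521737 and ASNS at chr7:97851677-97872542 lie on the minus strand. DDIT3 overlaps a protein-coding gene of its own strand known by the identifier ENSG00000285133 over 2769 bases, whatever the strand setting, and the microRNA gene MIR616. On the opposite strand it overlaps MARS1 over 982 bases and MBD6 over 1028 bases. The strand setting of the authors' counting is not given in the sources used here, so how reads in these overlaps were counted is not known. The counts were made on GENCODE 27, in which the overlaps were not checked. MARS1 is itself among the tRNA synthetases described with the related genes. ASNS overlaps a non-coding transcript of its own strand over nearly its whole length.

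The 250 bases before each RefSeq start (GRCh38.p14, most upstream start listed) were searched on both strands for the C/EBP-ATF response element TGATGNAA and the cAMP response element TGACGTCA, since both are letters that ATF4 dimers are known to bind. The first stood in 2 of the 8 members, ASNS and CHAC1, and in 3.19% of the 27305 promoters of the table. The second stood in 1 member, PPP1R15A, and in 1.75% of promoters. The matches do not overlap. Each is given in 30 bases, 5′ to 3′ on the gene's strand, with the match in capitals, since these letters set the 3 genes apart from the other members. They lie at chr7:97872458-97872487 (minus strand) for ASNS, chr15:40953251-40953280 (plus strand) for CHAC1 and chr19:48872352-48872381 (plus strand) for PPP1R15A.
ASNS: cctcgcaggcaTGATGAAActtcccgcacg
CHAC1: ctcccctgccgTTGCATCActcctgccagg
PPP1R15A: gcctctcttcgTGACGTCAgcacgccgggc
The match begins 68 bases before the RefSeq start of ASNS, 209 before that of CHAC1, where it reads on the opposite strand, and 58 before that of PPP1R15A. All 3 stretches fall in exons of longer transcripts that GENCODE v44 places upstream. ATF4, DDIT3, TRIB3, PSAT1 and PHGDH held neither set of letters in this window.

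The 30 libraries held 38905286 to 71950532 counts at 6 h and 32302699 to 51604990 at 24 h. CDKN1A, a target of p53 used to check the labels, was at 34.1 to 50.5 CPM (counts scaled by TMM-normalized library size) in pGFP and RW mutant p53, at 242 to 788 CPM in wild type p53 and p53 O6-meG, at 57.9 and 65.9 CPM in p53 TM at 6 h, and at 289 to 422 CPM in p53 TM at 24 h. At 6 h, 2 libraries numbered as replicate 2, with and without O6-bzG, have titles whose first part and parentheses name opposite groups. They were left out of the groups and are named here by the start of their title. CDKN1A stood at 50.2 CPM in the library whose title begins O6_meG_BnG and at 249.7 CPM in that beginning O6_meG, which go against the parentheses and the genotype label. These values played no part in the grouping. The other 28 libraries form 8 groups of 3 and, for p53 O6-meG and p53 TM at 6 h, 2 groups of 2. VIM (1934 to 3581 CPM), KRT18 (272 to 720.0 CPM) and KRT8 (111 to 181 CPM) were high in every library. EPCAM did not exceed 0.381 CPM, NKX2-1 did not exceed 1.20 CPM, and CDH1, SFTPB, SFTPC and SCGB1A1 had at most 7 counts in a library, so the line carried keratins but not lung epithelial markers. Of blood and endothelial markers, PTPRC had at most 2 counts and PECAM1 and VWF stayed under 1 CPM, while HBB reached 162 to 1196 CPM, and its part in the results was not tested.

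Per kilobase of exon, the 8 genes spanned a wide range. The median over the 30 libraries was 68.8 RPKM for PSAT1 and 68.1 for ATF4, followed by DDIT3 (21.9), PPP1R15A (13.1), TRIB3 (9.13), CHAC1 (7.02), PHGDH (5.81) and ASNS (1.03). Lengths were unions of all annotated exons, which lowers genes with long rare isoforms such as PHGDH. ASNS rested on 102 to 552 counts a library and CHAC1 on 334 to 1416, so these were the least precisely counted members, while ATF4 had at least 5752 counts in each.

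**Figure D1:**
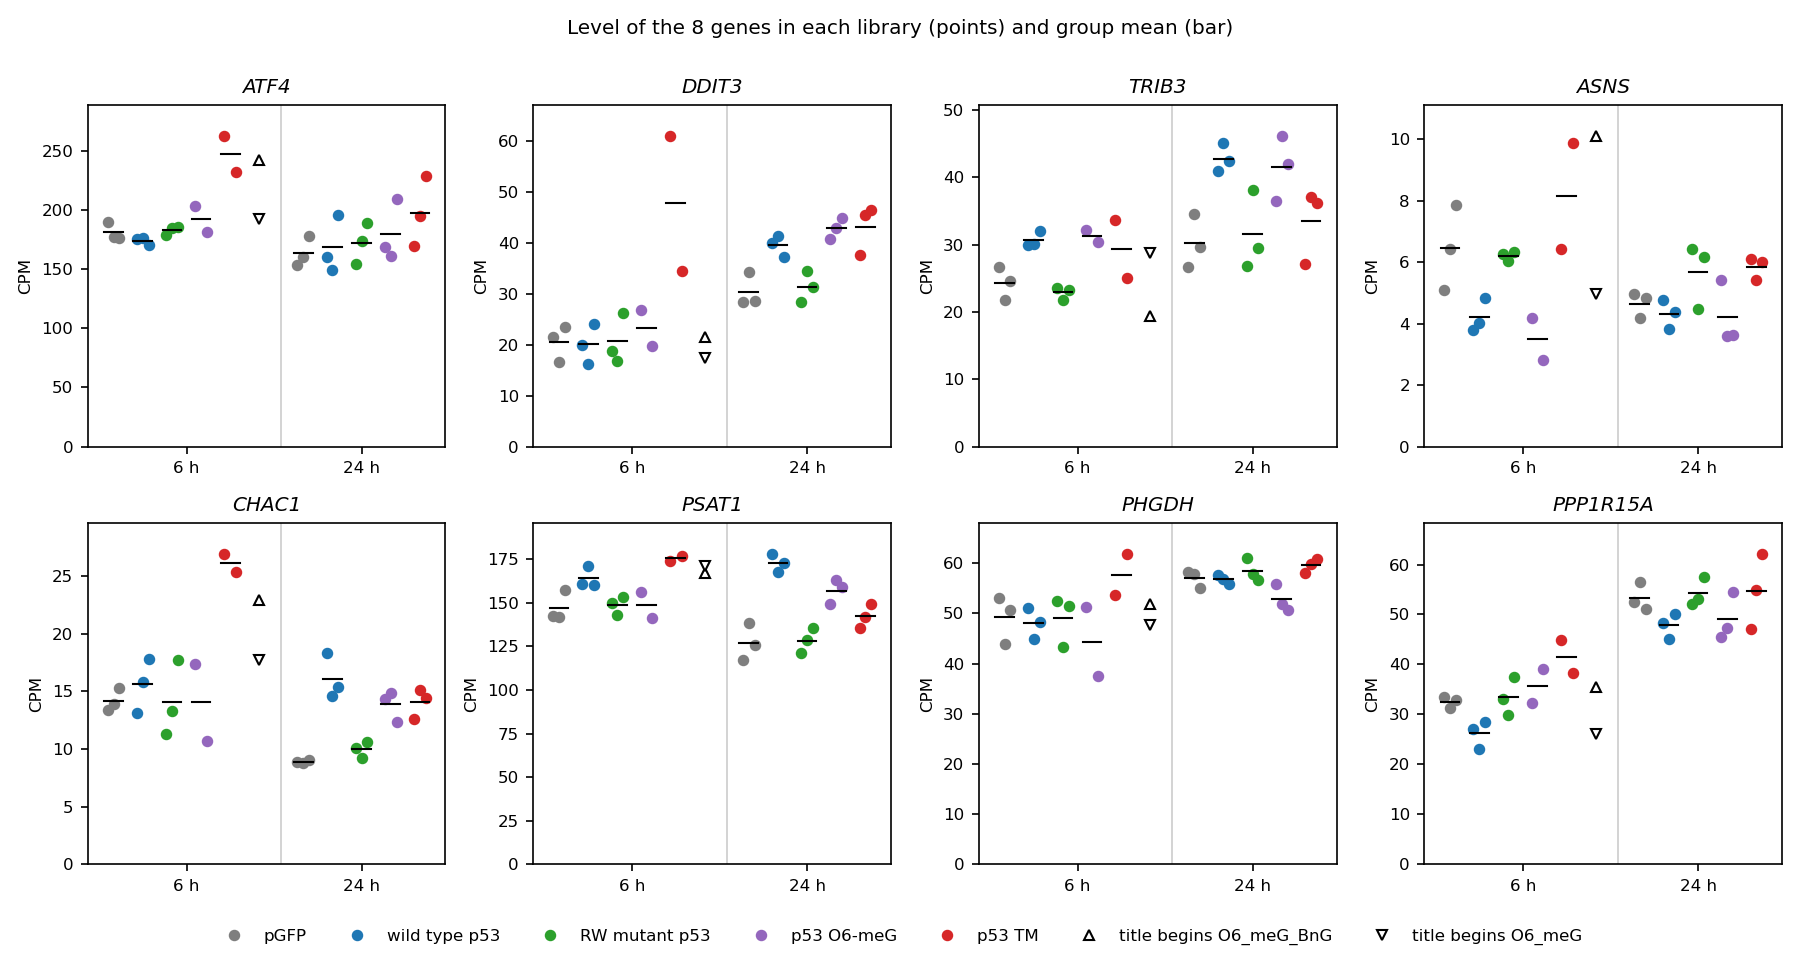
Level of each of the 8 genes in CPM (linear axis from 0) in every library at 6 h (left of the grey line) and 24 h (right), coloured by group, with the group mean as a bar; open triangles are the 2 libraries at 6 h whose titles conflict. In p53 TM at 6 h both libraries of DDIT3 and CHAC1 lie above all other grouped libraries of that time, and PPP1R15A is higher at 24 h than at 6 h in every group.

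At 6 h the number of members called with wild type p53 depended on how the replicates were treated. A gene is called here where its Benjamini-Hochberg adjusted P over all genes tested was under 0.05 in edgeR's quasi-likelihood test, whatever its fold, and changes are log2 fold changes ± SE. Against pGFP, 1 of 8 members was called, next to 10.3% of all genes. ASNS fell, from 5.11, 6.42 and 7.86 CPM in the 3 pGFP libraries to 3.80, 4.03 and 4.82 CPM with wild type p53 (-0.61 ± 0.19, adjusted P = 0.036), and the groups did not overlap. PPP1R15A was at 33.5, 31.2 and 32.9 CPM in pGFP and 27.1, 23.2 and 28.5 CPM in wild type p53 (-0.31 ± 0.11, adjusted P = 0.066). TRIB3 was at 26.7, 21.7 and 24.6 and 30.0, 30.1 and 32.1 CPM (0.34 ± 0.13, adjusted P = 0.12). Neither pair of groups overlapped. How many of all genes tested had groups that do not overlap was not counted, here or below. Such statements therefore only describe the libraries. Libraries of the same replicate number deviated together in this comparison, and with the replicate as a block all 3 genes were called. These were ASNS (-0.61 ± 0.14, adjusted P = 0.0024) and PPP1R15A (-0.31 ± 0.08, adjusted P = 0.0063) lower and TRIB3 (0.34 ± 0.08, adjusted P = 0.0022) higher, next to 18.8% of all genes. The ASNS call without the block was not stable, with an adjusted P of 0.12 without wild type p53 6 h replicate 1, 0.082 without pGFP 6 h replicate 2, 0.12 without wild type p53 6 h replicate 2 and 0.26 without pGFP 6 h replicate 3. ATF4 itself was at 189.9, 177 and 176 CPM in pGFP and 175, 176 and 170.3 CPM in wild type p53 (-0.06 ± 0.11, adjusted P = 0.88), and DDIT3, CHAC1, PSAT1 and PHGDH lay between -0.03 and 0.16.

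At 24 h 3 members were higher with wild type p53 than in pGFP, and ATF4 mRNA was not among them. They were an enzyme of glutathione breakdown, a serine synthesis enzyme and the pseudokinase TRIB3. From 6 h to 24 h CHAC1 and PSAT1 fell in pGFP and were not called in wild type p53, as given below. CHAC1 was at 8.87, 8.81 and 9.02 CPM in the pGFP libraries and at 18.3, 14.6 and 15.4 CPM with wild type p53, 1.81-fold higher (0.86 ± 0.16, adjusted P = 9.3e-05). PSAT1 was at 117, 138 and 126 CPM and 178, 168 and 173 CPM, 1.36-fold higher (0.44 ± 0.07, adjusted P = 8.1e-06). TRIB3 was at 26.6, 34.5 and 29.7 CPM and 40.9, 45.0 and 42.4 CPM, 1.41-fold higher (0.50 ± 0.13, adjusted P = 0.0039). In each, all 3 wild type libraries stood above all 3 of pGFP. These calls held in each fit with a library left out. The count of 3 of 8 is to be read against 35.0% of all genes called in this comparison, and none reached 2-fold. The median change of the 8 members was 0.21 next to 0.01 over all genes tested.

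DDIT3 was at 28.3, 34.3 and 28.7 CPM in pGFP and 40.0, 41.4 and 37.3 CPM in wild type p53 at 24 h (0.38 ± 0.18, adjusted P = 0.11). The groups did not overlap, and with the replicate block DDIT3 was called (0.38 ± 0.14, adjusted P = 0.024), which made 4 of 8 next to 48.4% of all genes. ATF4, at 153, 160.1 and 178 against 160.0, 149 and 196 CPM, overlapped (0.04 ± 0.11, adjusted P = 0.81), as did ASNS (-0.11 ± 0.19, adjusted P = 0.72) and PHGDH (-0.01 ± 0.09, adjusted P = 0.97). PPP1R15A was at 52.4, 56.4 and 51.2 and 48.3, 45.0 and 50.1 CPM (-0.16 ± 0.10, adjusted P = 0.26). The difference of the wild type effect between the 2 times was itself tested. CHAC1 was the member called, with an effect larger at 24 h by 0.72 ± 0.22 (adjusted P = 0.047), next to 6.51% of all genes. That call stands at the threshold, and it was lost in 9 of the 12 fits that leave out 1 library, with an adjusted P of 0.064 to 0.15. It was kept without replicate 2 (adjusted P just under the threshold) or replicate 3 (0.046) of wild type p53 at 24 h and without its replicate 3 at 6 h (0.034). PSAT1 was not called in this test (0.29 ± 0.09, adjusted P = 0.069).

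The RW mutant left all members without a call at both times, and 0.00469% of all genes, which is 1 gene, was called at 6 h and again at 24 h. In edgeR 0 of 8 members had an unadjusted P under 0.05 at 6 h and 0 at 24 h, and DESeq2 called 0 and 0. Of all genes 1.02% had an unadjusted P under 0.05 at 6 h and 0.975% at 24 h, and 3.45% did at 24 h with the replicate block, all fewer than the limit itself would give without any difference, so the test was strict here and the intervals say more than the counts. At 24 h CHAC1 was at 10.1, 9.26 and 10.6 CPM with the mutant, against 8.87, 8.81 and 9.02 in pGFP (0.17 ± 0.16, adjusted P = 1). PSAT1 was at 121, 129 and 135 CPM (0.02 ± 0.07), so the 95% interval of its difference from pGFP, -0.12 to 0.15, does not reach the wild type change of 0.44. For ASNS, with few counts, the interval was wider, from -0.08 to 0.66.

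With p53 from the lesion vector without O6-bzG, ASNS was lower than in pGFP at 6 h and 4 members were higher at 24 h. At 6 h ASNS was the member called, next to 4.85% of all genes, at 4.19 and 2.80 CPM in the 2 libraries against 5.11, 6.42 and 7.86 in pGFP (-0.88 ± 0.22, adjusted P = 0.016). The adjusted P was 0.11 without pGFP 6 h replicate 3 and 0.32 without p53 O6-meG 6 h replicate 3. TRIB3 stood at 32.2 and 30.4 CPM, above the 3 pGFP libraries, with no call (0.36 ± 0.15, adjusted P = 0.18). At 24 h 4 of 8 members were higher than in pGFP, where 18.1% of all genes were higher and 29.5% were called in either direction. The replicate block called the same 4, next to 42.8% of all genes called in either direction. CHAC1 was at 14.4, 14.9 and 12.4 CPM (0.64 ± 0.16, adjusted P = 0.0025) and PSAT1 at 149, 163 and 159 CPM (0.31 ± 0.07, adjusted P = 8.9e-04). These are the enzymes of glutathione breakdown and serine synthesis. TRIB3 was at 36.6, 46.1 and 42.0 CPM (0.46 ± 0.13, adjusted P = 0.0092) and DDIT3 at 40.9, 43.0 and 45.0 CPM (0.50 ± 0.18, adjusted P = 0.039). None of these groups overlapped pGFP. The DDIT3 call was lost in 5 of 6 fits without the block that leave out 1 library, with an adjusted P of 0.12 without pGFP 24 h replicate 1, 0.052 without p53 O6-meG 24 h replicate 1, 0.078 without p53 O6-meG 24 h replicate 2, 0.11 without pGFP 24 h replicate 3 and 0.097 without p53 O6-meG 24 h replicate 3. That of TRIB3 was 0.063 without pGFP 24 h replicate 1 and 0.06 without p53 O6-meG 24 h replicate 2. Wild type p53 and p53 O6-meG were compared with the same pGFP libraries and were not tested against each other.

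**Figure D2:**
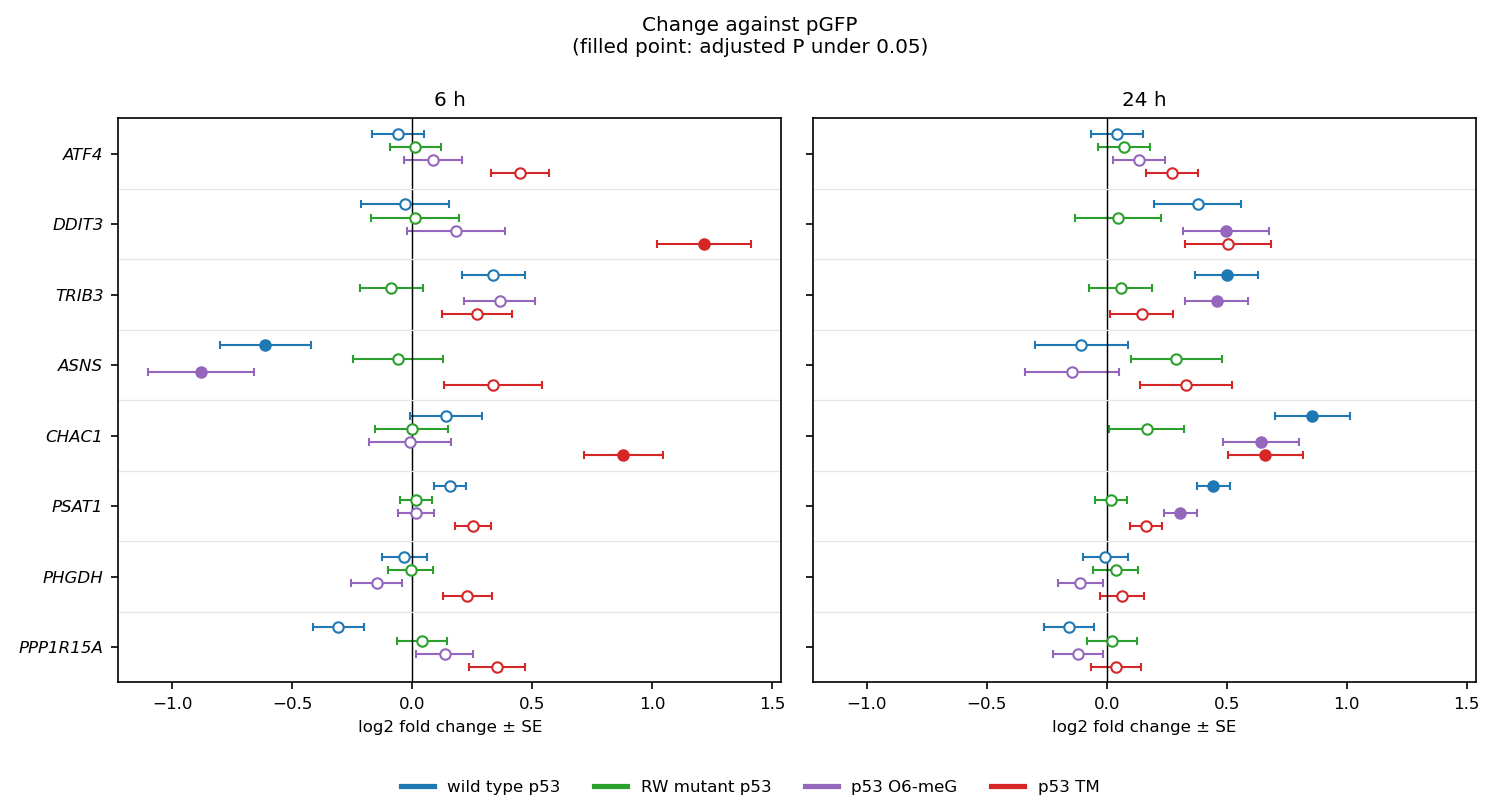
Log2 fold change against pGFP of each gene at 6 h (left) and 24 h (right) for 4 vectors or treatments, with SE bars; filled points have an adjusted P under 0.05. At 6 h DDIT3 and CHAC1 are filled for p53 TM and ASNS for wild type p53 and p53 O6-meG, and at 24 h CHAC1 is filled for all but RW mutant p53.

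In the 2 libraries grouped as p53 TM at 6 h, DDIT3 and CHAC1 were called higher than in pGFP. These libraries were the highest of that time in both genes, and the DDIT3 call rested on replicate 1. DDIT3 was at 61.0 and 34.6 CPM in the 2 p53 TM libraries, against 21.5, 16.6 and 23.5 CPM in pGFP, 2.32-fold higher (1.22 ± 0.20, adjusted P = 0.0024). CHAC1 was at 26.9 and 25.3 CPM against 13.4, 13.9 and 15.3 CPM, 1.84-fold higher (0.88 ± 0.17, adjusted P = 0.013). The groups did not overlap in either gene, and the replicates of DDIT3 differed by far more than those of CHAC1. Both calls fall among 43 genes in all, 0.202% of those tested, and the median change of the 8 members was 0.34 next to 0.01 over all genes. ATF4 was at 262 and 232 CPM against 189.9, 177 and 176 CPM (0.45 ± 0.12, adjusted P = 0.2), and PPP1R15A at 45.0 and 38.2 against 33.5, 31.2 and 32.9 CPM (0.35 ± 0.12, adjusted P = 0.48). These groups did not overlap either, nor did those of PSAT1 (0.25 ± 0.07, adjusted P = 0.33) and PHGDH (0.23 ± 0.10, adjusted P = 0.81), but none of the 4 was called. With groups this small, separation alone says little. TRIB3 (0.27 ± 0.15, adjusted P = 0.9) and ASNS (0.34 ± 0.20, adjusted P = 0.93) overlapped pGFP. With n = 2 the calls leaned on single libraries. For DDIT3 the adjusted P was 0.62 without p53 TM 6 h replicate 1. For CHAC1 it was 0.093 without pGFP 6 h replicate 1, 0.32 without p53 TM 6 h replicate 1, 0.11 without pGFP 6 h replicate 2 and 0.089 without p53 TM 6 h replicate 3, although the change stayed between 0.84 and 0.94 in all 5 of these fits.

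The 2 libraries with conflicting titles bear on this comparison and gave different answers by gene. The library whose title begins O6_meG_BnG had 22.9 CPM of CHAC1, 242 of ATF4, 10.1 of ASNS and 167 of PSAT1, each above all 3 pGFP libraries of 6 h. Its DDIT3, 21.6 CPM, lay within them, and its TRIB3, 19.4 CPM, lay below them. The library whose title begins O6_meG had 17.7 CPM of CHAC1, 192 of ATF4, 17.4 of DDIT3 and 4.95 of ASNS. With both placed by the first part of the title, CHAC1 was called against pGFP (0.82 ± 0.15, adjusted P = 0.0086) and DDIT3 was not (0.92 ± 0.23, adjusted P = 0.09). With both placed by the parentheses, neither was called (adjusted P = 0.24 and 0.3), and no member was called in any comparison of p53 TM at 6 h. The CDKN1A levels of the 2 libraries went against that placing.

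Against wild type p53, p53 TM at 6 h had 5 of 8 members higher and none lower, next to 10.9% of all genes called in either direction. The members had a median change of 0.59 next to -0.02 over all genes. DDIT3 was 2.37-fold higher, with wild type libraries at 20.02, 16.2 and 24.0 CPM (1.25 ± 0.20, adjusted P = 7.6e-05). ASNS was at 6.42 and 9.87 CPM against 3.80, 4.03 and 4.82, 1.93-fold higher (0.95 ± 0.21, adjusted P = 0.0024), while the wild type libraries were themselves below pGFP. CHAC1 was 1.67-fold higher, with wild type libraries at 13.2, 15.8 and 17.8 CPM (0.74 ± 0.17, adjusted P = 0.0032). PPP1R15A, at 45.0 and 38.2 against 27.1, 23.2 and 28.5 CPM, was 1.58-fold higher (0.66 ± 0.12, adjusted P = 2.5e-04), and ATF4 was 1.42-fold higher (0.51 ± 0.12, adjusted P = 0.0048). TRIB3 (-0.07 ± 0.15, adjusted P = 0.89), PSAT1 (0.10 ± 0.07, adjusted P = 0.54) and PHGDH (0.26 ± 0.10, adjusted P = 0.12) were not called. DDIT3 and PPP1R15A kept their calls in each fit without 1 wild type library. None of these fits held the library whose title begins O6_meG_BnG. Its DDIT3, at 21.6 CPM, lay within the wild type range. ATF4 had an adjusted P of 0.13 without p53 TM 6 h replicate 1, CHAC1 of 0.052 without p53 TM 6 h replicate 1 and ASNS of 0.16 without p53 TM 6 h replicate 3.

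Against the same lesion vector without O6-bzG, 3 of 8 members were higher in p53 TM at 6 h and none lower. Of all genes 4.10% were called, 0.731% higher and 3.37% lower. ASNS was at 6.42 and 9.87 CPM against 4.19 and 2.80 (1.22 ± 0.24, adjusted P = 0.0019). DDIT3 was at 61.0 and 34.6 against 26.8 and 19.8 (1.03 ± 0.22, adjusted P = 0.0052) and CHAC1 at 26.9 and 25.3 against 17.4 and 10.7 (0.89 ± 0.19, adjusted P = 0.0042). No group overlapped. The p53 O6-meG library of replicate 3 decided the count: without it no member was called, with an adjusted P of 0.079 for ASNS, 0.14 for DDIT3 and 0.18 for CHAC1. DDIT3 also lost its call without p53 TM replicate 1 (adjusted P = 0.24) and ASNS without p53 TM replicate 3 (adjusted P = 0.11). ATF4 (0.36 ± 0.13, adjusted P = 0.15) and PHGDH (0.38 ± 0.11, adjusted P = 0.065) did not overlap either but were not called.

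**Figure D3:**
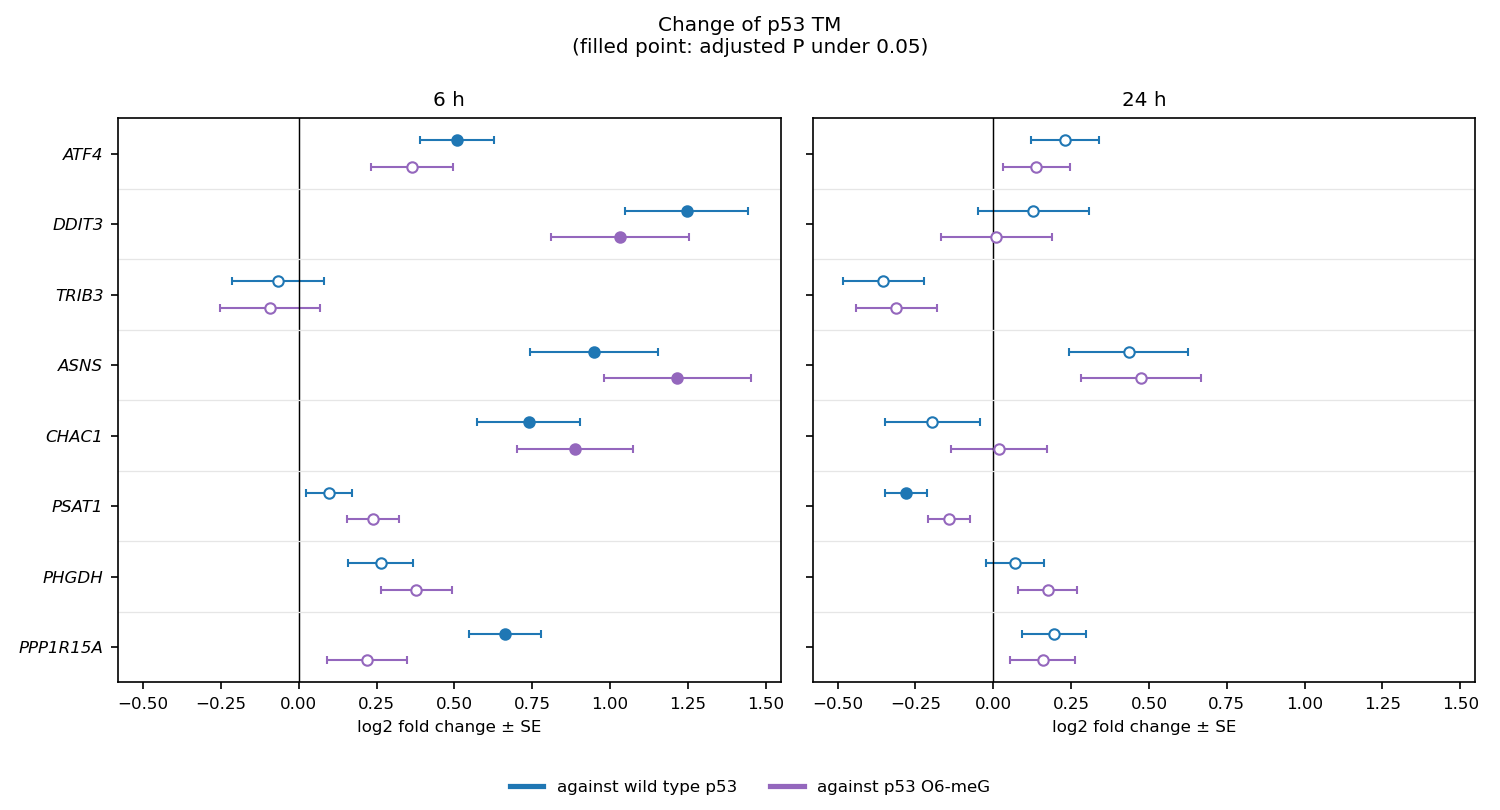
Log2 fold change of each gene in p53 TM against wild type p53 and against p53 O6-meG at 6 h (left) and 24 h (right), with SE bars; filled points have an adjusted P under 0.05. At 6 h 5 points against wild type p53 and 3 against p53 O6-meG are filled, all to the right of 0, and at 24 h PSAT1 against wild type p53 is filled, to the left.

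At 24 h CHAC1 was the member called in p53 TM against pGFP. At 12.6, 15.1 and 14.4 CPM it was higher than in pGFP (0.66 ± 0.16, adjusted P = 0.0052). This was 1 of 8 members, next to 10.7% of all genes called in either direction. DDIT3, at 37.7, 45.5 and 46.6 CPM, did not overlap pGFP (0.51 ± 0.18, adjusted P = 0.075). Same-numbered libraries deviated together at 24 h. With the replicate block 4 members were higher than in pGFP, next to 21.7% of all genes called in either direction. They were CHAC1, DDIT3 (0.51 ± 0.14, adjusted P = 0.0078), ATF4 (0.26 ± 0.06, adjusted P = 0.0011) and PSAT1 (0.16 ± 0.06, adjusted P = 0.039). The ATF4 libraries, at 169, 195 and 228 CPM against 153, 160.1 and 178, overlapped as groups, but each p53 TM library was above the pGFP library of its own number. ATF4 was also called without the block when p53 TM replicate 1 was left out (adjusted P = 0.045), and PSAT1 when pGFP replicate 2 was (adjusted P = 0.049).

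Against wild type p53 at 24 h, PSAT1 was lower in p53 TM, at 136, 142 and 149 against 178, 168 and 173 CPM (-0.28 ± 0.07, adjusted P = 0.0037). This was 1 of 8 members, next to 21.2% of all genes called in either direction. With the block 4 members were called, next to 37.0% of all genes, PSAT1 and TRIB3 (-0.36 ± 0.08, adjusted P = 0.00067) lower and ATF4 (0.23 ± 0.06, adjusted P = 0.0024) and ASNS (0.44 ± 0.15, adjusted P = 0.021) higher. Without the block, ATF4 was called when p53 TM replicate 1 (adjusted P = 0.035) or wild type p53 replicate 3 (adjusted P = 0.028) was left out. Against p53 O6-meG at 24 h no member was called, next to 10.0% of all genes, with unadjusted P under 0.05 for 3 members in edgeR and 0 called by DESeq2. With the block, next to 25.3% of all genes, TRIB3 was lower (-0.31 ± 0.08, adjusted P = 0.0045) and ASNS higher (0.48 ± 0.15, adjusted P = 0.019), and ASNS was called without p53 O6-meG replicate 1 (adjusted P = 0.042). The gap between p53 TM and wild type p53 differed between the times for 2 members, in a test added after the values were seen and next to 1.45% of all genes. For DDIT3 the gap went from 1.25 at 6 h to 0.13 at 24 h, a difference of -1.12 ± 0.27 (adjusted P = 0.028). The ungrouped library of 6 h whose title begins O6_meG_BnG had 21.6 CPM of DDIT3 and was not in this test. For CHAC1 the gap went from 0.74 to -0.20, a difference of -0.94 ± 0.23 (adjusted P = 0.029), and the value at 24 h was not called (adjusted P = 0.41). These calls were fragile: the adjusted P of DDIT3 was 0.075 without p53 TM 24 h replicate 1, 0.06 without wild type p53 24 h replicate 2, 0.058 without wild type p53 6 h replicate 1, 0.46 without p53 TM 6 h replicate 1 and 0.094 without wild type p53 6 h replicate 2. For CHAC1 it was 0.072 without wild type p53 24 h replicate 1, 0.079 without p53 TM 24 h replicate 1, 0.091 without wild type p53 6 h replicate 1, 0.17 without p53 TM 6 h replicate 1, 0.061 without wild type p53 6 h replicate 2 and 0.086 without p53 TM 6 h replicate 3.

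Between 6 h and 24 h PPP1R15A and, in most groups, DDIT3 went up. PPP1R15A, the phosphatase subunit, rose from 6 h to 24 h in all 5 vectors or treatments, by 0.71 ± 0.10 in pGFP, 0.86 ± 0.11 in wild type p53, 0.70 ± 0.11 in RW mutant p53, 0.46 ± 0.12 in p53 O6-meG and 0.40 ± 0.12 in p53 TM (adjusted P between 4.4e-07 and 0.008). In pGFP it went from 33.5, 31.2 and 32.9 to 52.4, 56.4 and 51.2 CPM, 1.64-fold, and no library of 24 h overlapped those of 6 h in any vector. Its call was lost in p53 O6-meG without the 6 h library of replicate 1 (adjusted P = 0.099) and in p53 TM without replicate 3 of 6 h or of 24 h (adjusted P = 0.15 and 0.052). DDIT3 rose in 4 of 5, by 0.57 ± 0.18 in pGFP, 0.98 ± 0.18 in wild type p53, 0.60 ± 0.18 in RW mutant p53 and 0.88 ± 0.21 in p53 O6-meG. In p53 TM the change of DDIT3 was -0.14 ± 0.20, adjusted P = 0.59, from 61.0 and 34.6 CPM at 6 h. The ungrouped library of 6 h whose title begins O6_meG_BnG had 21.6 CPM of DDIT3. TRIB3 rose in 3 of 5, from 30.0, 30.1 and 32.1 to 40.9, 45.0 and 42.4 CPM in wild type p53 (0.48 ± 0.13, adjusted P = 0.0042). It also rose in RW mutant p53 (0.46 ± 0.13, adjusted P = 0.0073) and in p53 O6-meG (0.41 ± 0.15, adjusted P = 0.028). PHGDH rose in 2 of 5, wild type p53 (0.24 ± 0.09, adjusted P = 0.038) and RW mutant p53 (0.26 ± 0.09, adjusted P = 0.031).

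CHAC1 and PSAT1 fell with time where p53 was absent or mutant, and in p53 TM. CHAC1 went from 13.4, 13.9 and 15.3 to 8.87, 8.81 and 9.02 CPM in pGFP (-0.67 ± 0.16, adjusted P = 0.0012). It went from 11.3, 13.3 and 17.8 to 10.1, 9.26 and 10.6 CPM in RW mutant p53 (-0.50 ± 0.15, adjusted P = 0.011) and from 26.9 and 25.3 to 12.6, 15.1 and 14.4 CPM in p53 TM (-0.89 ± 0.17, adjusted P = 1.2e-04). It was 0.04 ± 0.15, adjusted P = 0.85 in wild type p53 and -0.02 ± 0.17, adjusted P = 0.93 in p53 O6-meG. The higher CHAC1 of wild type p53 at 24 h was thus a level that stayed near that of 6 h while pGFP went down. PSAT1 was also called lower in these 3, with -0.21 ± 0.07, adjusted P = 0.012 in pGFP, -0.21 ± 0.07, adjusted P = 0.013 in RW mutant p53 and -0.30 ± 0.07, adjusted P = 0.0019 in p53 TM. It was 0.07 ± 0.07, adjusted P = 0.39 in wild type p53 and 0.08 ± 0.08, adjusted P = 0.43 in p53 O6-meG. The difference of its wild type effect between the times missed the threshold in the fit without the block (adjusted P = 0.069). PSAT1 was called in 1 of the 12 such fits that leave out 1 library, with an adjusted P from 0.031 to 0.2. A change over time that depends on p53 was thus neither shown nor excluded for PSAT1. ASNS fell in pGFP (-0.48 ± 0.19, adjusted P = 0.046). ATF4 fell in p53 TM, from 262 and 232 to 169, 195 and 228 CPM (-0.32 ± 0.12, adjusted P = 0.031). Members called numbered 5 of 8 in pGFP next to 41.2% of all genes, 4 in wild type p53 next to 46.0%, 6 in RW mutant p53 next to 40.1%, 3 in p53 O6-meG next to 43.9% and 4 in p53 TM next to 43.6%. Libraries of the 2 times also differed in their share of mitochondrial counts, 0.123% to 0.428% at 6 h and 0.310% to 1.19% at 24 h. The study's methods report lower transfection efficiency by GFP at 6 h than at 24 h, so the cells sorted were unlike shares of the culture. The part of either difference in these changes was not tested.

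Some of these calls rested on single libraries. In pGFP, leaving out replicate 2 of 24 h, or replicate 2 or 3 of 6 h, took the members called from 5 to 3. The adjusted P of DDIT3 was 0.067 without pGFP 24 h replicate 2 and 0.091 without pGFP 6 h replicate 2. That of ASNS was 0.065 without pGFP 24 h replicate 1, 0.15 without pGFP 24 h replicate 2, 0.075 without pGFP 24 h replicate 3, 0.083 without pGFP 6 h replicate 2 and 0.25 without pGFP 6 h replicate 3. That of PSAT1 was 0.095 without pGFP 24 h replicate 1 and 0.085 without pGFP 6 h replicate 3. In RW mutant p53, CHAC1 lost its call without replicate 3 of 6 h (adjusted P = 0.18), DDIT3 without replicate 2 of 6 h (0.056) and TRIB3 without replicate 2 of 24 h (0.078). The adjusted P of PSAT1 there was 0.073 without RW mutant p53 24 h replicate 1, 0.07 without RW mutant p53 6 h replicate 1 and 0.095 without RW mutant p53 6 h replicate 3. For PHGDH it was 0.1 without RW mutant p53 24 h replicate 1, 0.051 without RW mutant p53 24 h replicate 2 and 0.12 without RW mutant p53 6 h replicate 2. In wild type p53 the adjusted P of PHGDH was 0.067 without wild type p53 24 h replicate 1, 0.07 without wild type p53 24 h replicate 2, 0.056 without wild type p53 24 h replicate 3, 0.15 without wild type p53 6 h replicate 2 and 0.069 without wild type p53 6 h replicate 3. In p53 O6-meG that of TRIB3 was 0.1 without p53 O6-meG 24 h replicate 2, 0.05 without p53 O6-meG 24 h replicate 3, 0.084 without p53 O6-meG 6 h replicate 1 and 0.16 without p53 O6-meG 6 h replicate 3. In p53 TM that of ATF4 was 0.16 without p53 TM 24 h replicate 1, 0.065 without p53 TM 24 h replicate 2 and 0.26 without p53 TM 6 h replicate 1.

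**Figure D4:**
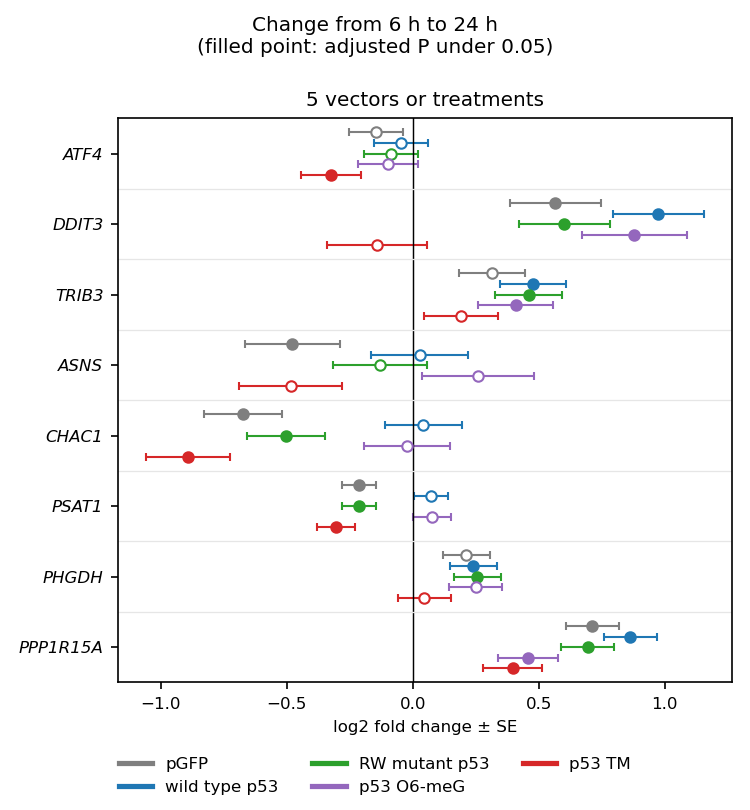
Log2 fold change of each gene from 6 h to 24 h in each of 5 vectors or treatments, with SE bars; filled points have an adjusted P under 0.05. PPP1R15A is filled and to the right of 0 in all 5, while CHAC1 and PSAT1 are filled and to the left in pGFP, RW mutant p53 and p53 TM and lie at 0 or close to it in wild type p53 and p53 O6-meG.

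Other genes of the pathway were taken as lists. Of the ATF4 partners and related stress regulators, 13 of 14 were tested (FGF21 had at most 2 counts). With wild type p53, 6 of 13 rose at 6 h next to 8.68% of all genes, 7 rose at 24 h next to 20.5%, and none fell without the replicate block. With the block 7 rose and STC2 fell (-0.38 ± 0.11, adjusted P = 0.012) at 6 h, and 9 rose and CEBPG fell at 24 h, both genes being named after their values were seen. Without the block their median changes were 0.44 and 1.03 next to 0.02 and 0.01 over all genes. The rises were led by GDF15, a secreted stress cytokine that is also a direct p53 target, at 15.5 to 18.0 CPM in wild type p53 against 0.192 to 0.284 CPM in pGFP at 6 h (6.15 ± 0.23, adjusted P = 7.8e-16). At 24 h it was at 32.2 to 47.7 against 0.735 to 0.823 CPM (5.62 ± 0.20, adjusted P = 2.4e-16). NUPR1, a small stress-induced chromatin protein, was called higher at both times but stayed under 0.5 CPM. DDIT4, an inhibitor of mTORC1, rose at 6 h (1.86 ± 0.20, adjusted P = 1.9e-07). Several genes of this list, such as GDF15, SESN2 and TNFRSF10B, are known p53 targets as well as stress genes, so its count does not single out ATF4.

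The other lists are to be read against the shares of all genes called, 10.3% at 6 h (18.8% with the block) and 35.0% at 24 h (48.4% with the block), and at 24 h several lie close to them. Among 12 genes of amino acid synthesis and one-carbon metabolism, 3 rose and 1 fell with wild type p53 at 6 h, and 3 rose and 2 fell at 24 h, or 6 and 2 with the replicate block. ALDH1L2, a mitochondrial folate enzyme, rose 4.55-fold at 24 h (2.19 ± 0.28, adjusted P = 6.5e-07). CTH, which makes cysteine from cystathionine, fell at 6 h (-0.49 ± 0.15, adjusted P = 0.03) and at 24 h (-0.55 ± 0.15, adjusted P = 0.004). Of 13 genes for tRNA synthetases, with the tRNA exporter XPOT counted among them, 1 rose at 6 h, and 4 rose and 1 fell at 24 h. Of 9 amino acid transporters none was called at 6 h in edgeR (0 had an unadjusted P under 0.05, and 1 fell with the block), and 2 rose and 2 fell at 24 h, among them SLC43A1 (-0.44 ± 0.17, adjusted P = 0.048). Of 13 genes of the ATF6 and XBP1 branches, which answer unfolded protein beside ATF4, 1 rose at 6 h (1 rose and 3 fell with the block), and 4 rose and 4 fell at 24 h, the largest fall being ERN1, the sensor IRE1 (-0.50 ± 0.12, adjusted P = 0.0023). Of 4 eIF2 kinases and eIF2 alpha, 1 rose at each time (2 rose and 1 fell at 24 h with the block). With RW mutant p53 none of these 65 genes was called in edgeR at either time, and 0 had an unadjusted P under 0.05 at 6 h and 0 at 24 h.

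In p53 TM at 6 h, GDF15 lay between pGFP and wild type p53 while several genes of the unfolded protein answer lay above wild type p53. Against pGFP 5 of 13 partners rose, GDF15 (2.18 ± 0.31, adjusted P = 5.4e-04), DDIT4, SESN2, ATF3 and TNFRSF10B, and no gene of the other lists was called, next to 0.202% of all genes. Against wild type p53, where 2.77% of all genes were higher and 8.14% lower, 5 of the same 13 were lower and 1 higher, GDF15 by -3.97 ± 0.21. Of the ATF6 and XBP1 list 6 of 13 were higher and 1 lower, of the amino acid synthesis list 3 of 12 were higher, of the transporters 2 of 9, of the tRNA synthetase list 1 of 13, and of the eIF2 genes 1 of 5 was lower. HERPUD1, an endoplasmic reticulum protein of the degradation pathway, was chosen after its values were seen; it lay between 70.0 and 91.6 CPM in p53 TM, against 28.9 to 36.3 CPM in wild type p53 (1.33 ± 0.23, adjusted P = 2.7e-04) and 43.4 to 47.9 CPM in pGFP (0.80 ± 0.23, adjusted P = 0.32). The cystine transporter SLC7A11, chosen likewise, lay between 52.5 and 59.8 CPM against 31.8 to 38.2 CPM in wild type p53 (0.71 ± 0.16, adjusted P = 0.0029) and 32.1 to 39.1 CPM in pGFP (0.69 ± 0.16, adjusted P = 0.071).

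From 6 h to 24 h in pGFP, where 22.3% of all genes fell and 19.0% rose, 9 of 13 genes of the tRNA synthetase list fell and none rose, with a median of -0.30 next to 0.00 over all genes tested. Of the amino acid synthesis and one-carbon list 7 of 12 fell and 1 rose (CTH, 0.44 ± 0.14, adjusted P = 0.016), and MTHFD1L, a mitochondrial folate enzyme, had the largest fall (-0.69 ± 0.11, adjusted P = 2.9e-05). CEBPG, a C/EBP partner of ATF4, fell (-0.88 ± 0.13, adjusted P = 7.0e-06), as did EIF2S1, which encodes eIF2 alpha (-0.68 ± 0.09, adjusted P = 1.3e-06). GDF15 rose (1.69 ± 0.31, adjusted P = 1.2e-04) but stayed under 1 CPM in pGFP at both times. JDP2, a factor that binds AP-1 sites, also rose (0.64 ± 0.18, adjusted P = 0.0056). The ATF6 and XBP1 list went the other way from the synthetases, with 7 of 13 higher and 1 lower. Of 9 transporters 2 fell, of the 13 partners 3 rose and 3 fell, and of the 5 eIF2 genes 1 rose and 2 fell.

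The 8 members did not vary as a block. Over the 28 grouped libraries, which share vectors and times, Pearson correlations of log2 CPM ranged from -0.59 (TRIB3 with ASNS) to 0.82 (CHAC1 with PSAT1) over the 28 pairs of members, with a median of 0.26. PPP1R15A and DDIT3 correlated at 0.77, and DDIT3 and TRIB3 at 0.70. Among all genes tested, those with the most similar pattern were DHRS2 (0.84) and SLC3A2 (0.81) for ATF4, OSER1 (0.86) and an unnamed gene (0.85) for DDIT3, PPIB and DUSP1 (0.92 each) for TRIB3, and the pseudogene PKMP3 (0.80) and ZNF333 (0.80) for ASNS. For CHAC1 they were PSAT1 (0.82) and PDCD6IP (0.79), for PSAT1 STK39 (0.86) and NIBAN1 (0.85), for PHGDH DNAL4 (0.88) and OTUD1 (0.85), and for PPP1R15A ARRDC3 (0.95) and TTI2 (0.94). CHAC1 had another member, PSAT1, as its closest gene, and no other member did. When deviations from group means were correlated instead, CHAC1 with PSAT1 stood at 0.41 and TRIB3 with ASNS at -0.61. PPP1R15A with DDIT3 stood at 0.58 and DDIT3 with TRIB3 at 0.67. All these values describe 28 libraries of 10 groups and carry no test.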

How the data were processed

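RNA of sorted H1299 cells was sequenced as stranded, rRNA-depleted total RNA in single reads. The authors aligned reads to hg38 with STAR (version 2.5.3a) and made the deposited raw counts per gene with featureCounts of Subread (version 1.5.2) on GENCODE 27. Whether reads were counted by strand is not given in the sources used here. A table of the same counts divided by a size factor per library was also deposited and was not used. Replicates are called biological triplicates in the study's methods.

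Counts were fitted for 28 libraries in 10 groups with edgeR (version 4.0.16, R version 4.3.3): filterByExpr, TMM, quasi-likelihood test and Benjamini-Hochberg adjustment over the 21335 genes tested, in 19 comparisons, the last added after the values were seen. Levels are CPM on TMM-adjusted library sizes, and RPKM divides them by the union of exons in GENCODE 44. SE is the fold change over the root of F, and intervals are 95% normal approximations. Libraries held 32302699 to 71950532 counts, and no pair of replicates agreed within sampling noise. The fit was tested on simulated data.

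Same-numbered libraries deviated together over 5000 genes, every pair above 0.1, in wild type p53 against pGFP at 6 h (0.361 to 0.548) and in all comparisons within 24 h (0.421 to 0.899), which rests on the data since the labels do not say what a number marks. The p53 O6-meG and p53 TM groups of 6 h share only 2 numbers with the others, too few to decide (0.112 to 0.525 against pGFP or wild type p53, -0.00323 between them), and in RW mutant p53 against pGFP at 6 h and over time in the groups of 3 at least 1 pair was at or below 0.1.

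Named genes were the 8 members, the 3 called genes of the related lists with the largest rise and fall in wild type p53 against pGFP at each time and in pGFP over time, and the 2 genes most like each member. Members and lists were chosen with earlier results of these data known. Alternatives were DESeq2 (version 1.42.0), its size factors, other count filters, fits of the compared groups alone, the replicate block, both placings of the 2 libraries with conflicting titles, RW mutant p53 as the control (added later) and leaving out each library.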

Additional observations from a re-analysis of the deposited data

Results flagged for a closer look

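The effect of a vector differed between 6 h and 24 h for 2 members by a test of the difference itself. For CHAC1 the effect of wild type p53 against pGFP was larger at 24 h by 0.72 on the log2 scale (adjusted P = 0.047), a call kept in 3 of 12 fits that leave out 1 library. For p53 TM against wild type p53, in the comparison added after the values were seen, the effect changed by -1.12 for DDIT3 (adjusted P = 0.028) and by -0.94 for CHAC1 (adjusted P = 0.029). Both calls were lost in several fits that leave out 1 library.

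The 2 libraries of 6 h with conflicting titles stood in no group, and several of their values lay above all 3 pGFP libraries of that time. In the library whose title begins O6_meG_BnG these were ATF4 (242 CPM), PSAT1 (167 CPM), PPP1R15A (35.5 CPM), CHAC1 (22.9 CPM) and ASNS (10.1 CPM). In the library whose title begins O6_meG these were ATF4 (192 CPM), PSAT1 (171 CPM), TRIB3 (28.8 CPM) and CHAC1 (17.7 CPM). No group held the 4 samples needed to test for a sample far from the others.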

How the results depend on the processing

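No change of a member reversed a called direction under any alternative. Of 2216 values of single members under alternatives, 2014 kept their side of the threshold, 77 passed it and 125 no longer did. The numbers of members called moved as follows, and the cause was not tested. With the 2 libraries placed by the parentheses, which their CDKN1A levels went against, counts fell to 0 for wild type p53, p53 O6-meG and p53 TM against pGFP at 6 h, for p53 TM against wild type p53 and against p53 O6-meG at 6 h and for both differences between times, and to 3 for pGFP over time. With the first part of the title they were 1 for p53 TM against pGFP and 5 against p53 O6-meG at 6 h. DESeq2 gave 2 for wild type p53 at 6 h, 5 for p53 TM against p53 O6-meG at 6 h, 2 for p53 TM against wild type p53 at 24 h, and 2 and 4 for the differences between times of wild type p53 and p53 TM. DESeq2's size factors gave 2 for wild type p53 at 6 h and 2 for p53 TM against wild type p53 at 24 h. With every gene of at least 1 count there were 2 for p53 O6-meG at 24 h, 0 for p53 TM against wild type p53 at 24 h and 0 for the wild type difference between times, and with at least 10 counts in every library 2 for each of the latter pair. With only the groups compared there were 3 for wild type p53 at 6 h, 2 for p53 TM at 24 h and 1 for the p53 TM difference between times. With the replicate block there were 3 for wild type p53 and 2 for p53 O6-meG at 6 h, 6 for p53 TM against p53 O6-meG at 6 h, 4 for p53 TM against pGFP and 4 against wild type p53 at 24 h, 2 against p53 O6-meG at 24 h, and 2 for the wild type difference between times. The block changed other counts by less than 1.5 times. With RW mutant p53 as the control there were 2 for wild type p53 at 6 h and 0 for its difference between times. Leaving out 1 library gave 0 to 1 for wild type p53 and for p53 O6-meG at 6 h, 0 to 2 for p53 TM at 6 h, 3 to 5 against wild type p53 and 0 to 4 against p53 O6-meG. At 24 h it gave 3 to 3 for wild type p53, 2 to 4 for p53 O6-meG, 1 to 2 for p53 TM, 1 to 2 against wild type p53 and 0 to 1 against p53 O6-meG. Over time it gave 3 to 7 in pGFP, 3 to 4 in wild type p53, 4 to 6 in RW mutant p53, 2 to 3 in p53 O6-meG and 3 to 4 in p53 TM, and 0 to 1 and 0 to 3 for the differences of wild type p53 and p53 TM. Where a group of 2 lost a library, the lone sample was assumed to vary like the other groups. ASNS, with as few as 102 counts in a library, is the member that depth limits most.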

Other observations

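In p53 TM against pGFP at 6 h, few related genes passed the adjusted limit, but many lay past an unadjusted P of 0.05 in edgeR. Of the 65 related genes tested, 28 were higher and 1 lower at that limit, next to 5.98% of all genes in either direction. The higher ones included 5 of 13 in the tRNA synthetase list, 8 of 13 partners, 8 of 13 in the ATF6 and XBP1 list, 4 of 12 in the amino acid synthesis list and 2 of 9 transporters. These counts rest on 2 p53 TM libraries, were looked at after the values were seen, and carry no adjustment. O6-bzG was given only together with the lesion vector, and its own effect on these genes cannot be told apart from that of the lesion.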
